A study of Mus musculus with 11 samples.

Results

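The genes described here mark the inhibitory interneurons of the cortex: 34 genes for GABA synthesis and transport, for the classes that arise from the medial (MGE) and caudal (CGE) ganglionic eminence, for neuropeptides and for the pan-GABAergic lineage. They were chosen by name, and all 34 were found among the 14974 genes of the deposited table of all libraries and passed the minimum of a mean of 0.1 FPKM that left 14936 genes for testing. FPKM correct the fragments of a gene for its length and for how deeply the library was sequenced. They give a level relative to the rest of the library, and a comparison between genes is only rough. Bulk RNA was taken from the anterior cingulate cortex (ACC) of adult wild-type C57BL/6 mice, 1 mouse per library, dissected within 1 h of the last session. The 6 trained mice (3 female, 3 male) had learned to press a lever for food under a fixed ratio that was raised in steps, and the 5 untrained mice (3 female, 2 male) were food-restricted too, were placed in the same chambers and received food without pressing. The groups thus differ in lever pressing and in how the food was earned, and both carry the food restriction and the chamber. Each library is called by its group and its label number: Trained 1, 2 and 3 (female), Trained 12, 13 and 14 (male), Untrained 5, 6 and 17 (female) and Untrained 10 and 16 (male). Depth estimated from the steps between low values was 14.2 to 27.1 M fragments per library. This is an estimate from the deposited values and not the number of reads that the study states.

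Interneurons release GABA, which is made by the glutamate decarboxylases and loaded into vesicles by the transporter Slc32a1, and they restrain the excitatory neurons that carry cortical output. Cells from the MGE become the parvalbumin and somatostatin classes under the factors Lhx6, Sox6, Satb1 and Maf, and cells from the CGE become the classes that hold Vip, Reln, Calb2 or Ndnf under Prox1 and Npas1. Many of them release peptides beside GABA, and several of these peptide genes are known to respond to cyclic AMP and calcium through the factor CREB, which binds the cyclic AMP response element (CRE). In bulk tissue, fewer cells of a type and less RNA per cell cannot be told apart.

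Promoters of some of the genes named in the results are shown first. The first is that of somatostatin (Sst), the gene of the class with the most RNA. Cort, Crhbp and Tac1 follow, the peptide genes that were lower in libraries numbered 10 to 17. The last is Dlx2, a lineage factor that was higher in trained mice before adjustment. Promoters of Slc32a1, Reln and Erbb4, which the results also single out, are not shown. Each run holds the 250 bases before the start site given by RefSeq on GRCm38.p6, 5′ to 3′ on the strand of the gene. Capitals mark the CRE (TGACGTCA) or its core (TGACG, or CGTCA where it reads on the other strand). The windows are chr16:23890845-23891094 (minus strand) for Sst, chr4:149126764-149127013 (minus) for Cort, chr13:95444832-95445081 (minus) for Crhbp, chr6:7554811-7555060 (plus) for Tac1 and chr2:71546755-71547004 (minus) for Dlx2.
Sst: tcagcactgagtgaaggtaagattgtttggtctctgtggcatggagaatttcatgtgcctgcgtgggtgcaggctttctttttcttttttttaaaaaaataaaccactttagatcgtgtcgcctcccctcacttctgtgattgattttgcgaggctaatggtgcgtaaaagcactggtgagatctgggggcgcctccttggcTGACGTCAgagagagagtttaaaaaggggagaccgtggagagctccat
Cort: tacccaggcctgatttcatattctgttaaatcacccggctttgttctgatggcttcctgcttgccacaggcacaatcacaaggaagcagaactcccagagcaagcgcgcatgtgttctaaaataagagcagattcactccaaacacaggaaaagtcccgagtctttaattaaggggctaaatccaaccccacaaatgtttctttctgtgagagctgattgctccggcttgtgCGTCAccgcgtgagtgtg
Crhbp: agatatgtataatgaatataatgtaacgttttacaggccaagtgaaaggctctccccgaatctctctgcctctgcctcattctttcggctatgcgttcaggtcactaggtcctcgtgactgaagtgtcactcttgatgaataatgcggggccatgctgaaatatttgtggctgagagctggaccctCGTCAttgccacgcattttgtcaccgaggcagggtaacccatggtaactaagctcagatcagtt
Tac1: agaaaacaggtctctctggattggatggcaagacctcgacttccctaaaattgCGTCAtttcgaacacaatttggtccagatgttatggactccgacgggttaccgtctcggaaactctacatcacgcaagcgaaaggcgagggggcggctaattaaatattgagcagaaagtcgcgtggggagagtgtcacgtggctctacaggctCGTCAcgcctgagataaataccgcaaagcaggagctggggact
Dlx2: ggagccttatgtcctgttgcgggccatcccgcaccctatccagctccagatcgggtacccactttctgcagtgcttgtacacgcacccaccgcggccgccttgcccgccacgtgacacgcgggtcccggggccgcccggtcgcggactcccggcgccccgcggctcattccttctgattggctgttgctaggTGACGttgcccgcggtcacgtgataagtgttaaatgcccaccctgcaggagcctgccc

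Promoters from 250 bases before to 50 bases after the start were found for 27 of the 34 members, 42 promoters in all, and searched on both strands. The full CRE was present in 1.79% of 32851 mouse promoters of the same length and in 1 member, Sst, where it begins 48 bases before the start. The core was present in 20.8% of all promoters and in 11 of the 42 member promoters (26.2%), 1 each for Cck, Cort, Crhbp, Dlx2, Dlx6os1, Gad2, Nos1, Sox6, Sst, Tac1 and Vip. It begins 18 bases before the start in Cort, 64 in Crhbp, 58 in Dlx2, and both 197 and 43 in Tac1. The full CRE contains the core on both strands. The AP-1 motif TGANTCA was in 7.81% of all promoters and in 1 member promoter, of Lhx6, and the homeodomain core TAATTA was in 5.29% of all and in promoters of Adarb2, Cort, Dlx6os1 and Tac1. The TATA box letters TATAAA were in 13.6% of all promoters and in those of 7 members, among them Vip and Gad1. All those printed above hold a core, while the promoters of Slc32a1, Reln and Erbb4 held none of the motifs searched. These matches describe letters only.

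The members spanned a wide range of levels. Cck, the cholecystokinin gene that excitatory cortical neurons also transcribe, had the highest level at 459 ± 42.6 FPKM (SD, n = 11 libraries), the 99.7th percentile of all genes tested. Sst followed at 365 ± 51.4 FPKM and Npy, the neuropeptide Y gene of many somatostatin cells, at 122 ± 15.1 FPKM. Gad1, the decarboxylase that makes most cortical GABA, was at 63.6 ± 4.89 FPKM. Next in order stood Pvalb (35.4 ± 4.61 FPKM), Vip (35.3 ± 2.61 FPKM), Slc32a1 (35.3 ± 1.94 FPKM) and Gad2 (30.4 ± 3.74 FPKM), of which Pvalb, Vip and Slc32a1 differed by less than their spread. The chromatin organiser Satb1 was at 23.0 ± 1.64 FPKM. The calcium-binding protein genes of the classes thus differed in level, with Calb2 at 8.50 ± 0.877 FPKM. Several class and lineage factors had lower levels: Lhx6 at 7.24 ± 0.511, Sox6 at 2.78 ± 0.437, Prox1 at 2.18 ± 0.282 and the 4 Dlx homeobox genes between 2.89 (Dlx2) and 5.11 FPKM (Dlx1). Chodl, which marks the long-range somatostatin cells that also hold Nos1, was lowest at 0.215 ± 0.0807 FPKM and rests on an estimated 13 to 39 fragments per library.

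**Figure D1:**
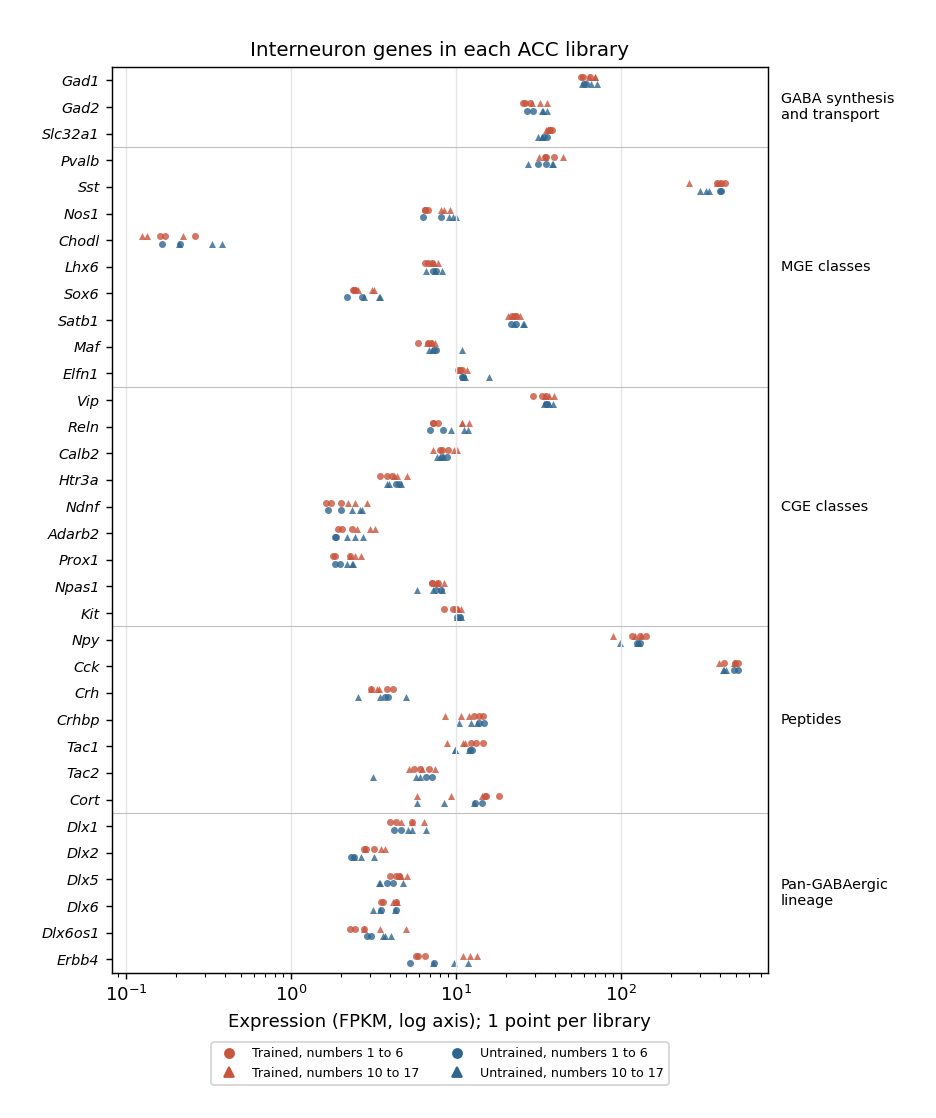
Expression of the 34 genes in each of the 11 libraries, in FPKM on a log axis, grouped by class, with 1 point per library, red for trained and blue for untrained mice, circles for libraries numbered 1 to 6 and triangles for 10 to 17. Cck and Sst stand highest, near 459 and 365 FPKM, Chodl lowest near 0.215 FPKM, and no gene separates red from blue completely.

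Whether training changed these genes was tested with limma on log2(FPKM + 0.1), and few members differed. Of the 34 members, 2 had an unadjusted p under 0.05 with the higher mean in trained mice, Slc32a1 and Dlx2, where 4.13% of all genes tested were called higher by the same rule. None was lower, where 4.2% of all genes were called, although Nos1 and Maf were called lower with sex as a covariate. At the thresholds of the study, 1.5-fold or more with p under 0.01 before adjustment, 0 members were called, against 0.281% of all genes. In no member did the 6 trained libraries lie clear of the 5 untrained ones, which they did for 0.763% of all genes. No member had an adjusted p under 0.05 (limma, Benjamini-Hochberg over all genes), and the lowest adjusted p of any gene in the table was 0.334. The log2 difference was above 0 for 16 members and below 0 for 18, and the median log2 difference over the members was -0.02, against -0.003 over all genes. For 31 of the 34 the 95% interval of the difference lay inside 1.5-fold in both directions, as it did for 13220 of all 14936 genes, and the other 3 were Chodl, Cort and Erbb4. In the same libraries 7 of 8 activity-regulated genes passed the thresholds of the study, all higher in trained mice. They were Fos, Npas4, Arc, Nr4a1, Egr2, Egr4 and Junb, but not Bdnf, with Fos at 57.4 ± 13.7 against 26.1 ± 9.98 FPKM. All of them but Junb are named in the paper as upregulated in these same data, so their passing is no independent test.

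**Figure D2:**
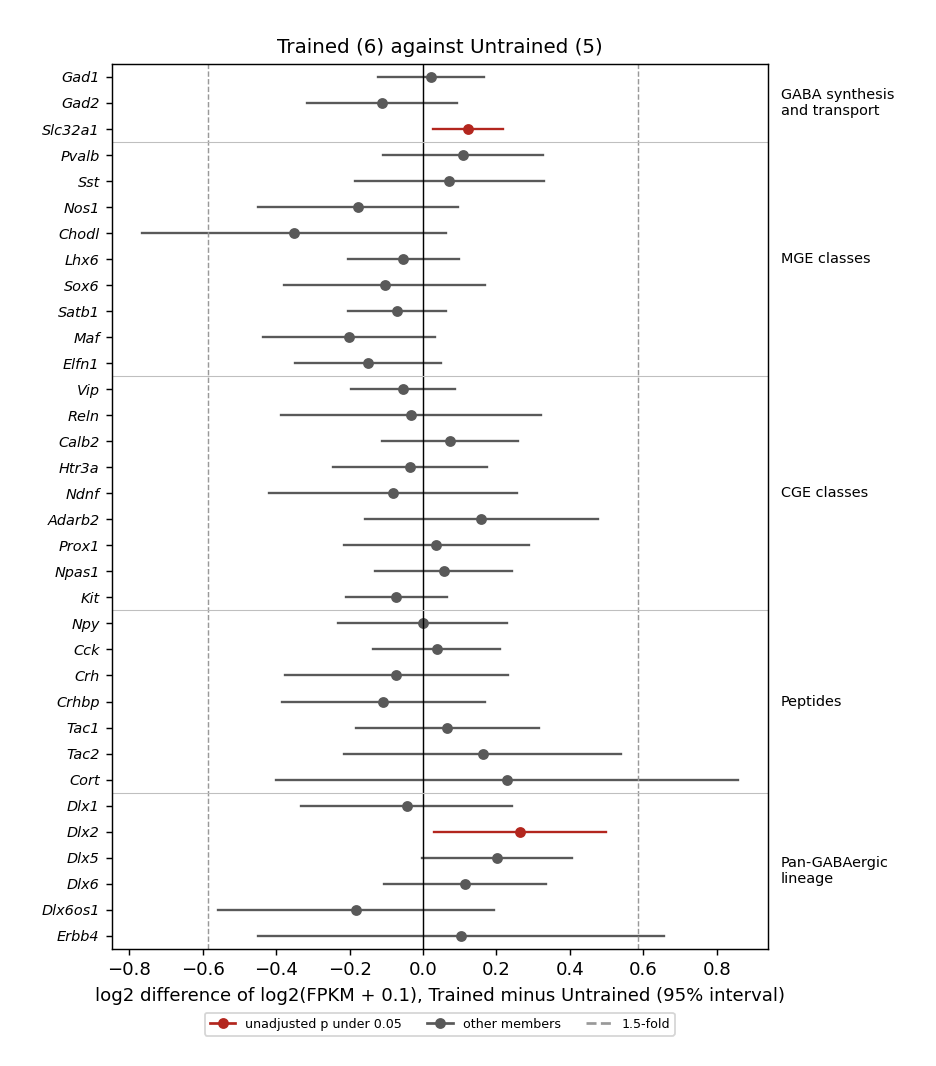
Difference between trained (n = 6) and untrained (n = 5) libraries for each member on the log2(FPKM + 0.1) scale, with its 95% interval from limma and dashed lines at 1.5-fold. Slc32a1 (0.12) and Dlx2 (0.26), drawn in red, have intervals above 0 before adjustment, and the points of the other members lie between -0.35 (Chodl) and 0.23 (Cort).

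The genes of GABA synthesis differed from each other. Gad1 was at 64.7, 59.2 and 57.5 FPKM in Trained 1, 2 and 3 and at 63.7, 69.9 and 69.1 FPKM in Trained 12, 13 and 14. In Untrained 5, 6, 10, 16 and 17 it was at 61.4, 59.6, 58.1, 65.3 and 71.2 FPKM. The groups covered the same range, and the highest library was untrained. The log2 difference was 0.02 ± 0.07 (SE), with a 95% interval from -8.22% to 12.1% (limma, adjusted p = 0.947, exact permutation p = 0.773). Gad2, the decarboxylase that is held at the synapse, was at 27.9, 26.1 and 25.3 FPKM in Trained 1, 2 and 3 and at 28.9, 32.2 and 35.6 FPKM in Trained 12, 13 and 14. In the untrained libraries, in the same order as above, it was at 29.2, 27.0, 35.5, 33.0 and 33.6 FPKM. Here too the groups overlapped, and the lower libraries of both were those numbered 1 to 6 (log2 difference -0.11 ± 0.09, exact permutation p = 0.305).

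Slc32a1, the vesicular GABA transporter, was the steadiest member, with a coefficient of variation of 5.50%. It was at 37.9, 36.5 and 36.9 FPKM in Trained 1, 2 and 3 and at 36.3, 36.7 and 35.3 FPKM in Trained 12, 13 and 14. In Untrained 5, 6, 10, 16 and 17 it was at 35.7, 34.3, 31.4, 33.4 and 33.4 FPKM. Of the trained libraries 5 of 6 exceeded every untrained one, and only Trained 14 lay below Untrained 5. The means were 36.6 ± 0.852 (SD, n = 6) and 33.6 ± 1.56 FPKM (SD, n = 5), a log2 difference of 0.12 ± 0.04 with an interval from 1.94% to 16.3% (limma, unadjusted p = 0.0152, adjusted p = 0.551). The exact permutation test over the 462 ways to assign the libraries gave a two-sided p of 0.00433, where 0.00216 is the smallest it can give. Within libraries 1 to 6 the difference was 0.08 (3 trained, 2 untrained) and within 10 to 17 it was 0.14 (3 against 3), neither past an unadjusted p of 0.05 in limma. Leaving out any 1 library kept the unadjusted p under 0.05. The gene lies on chromosome 2 of GRCm38 from 158610767 to 158615748 on the plus strand, and its exons overlap those of Gm14205 on the other strand, which is not in the table used here. Whether counting used the strand is not stated, so reads of the pair cannot be told apart.

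Of the 9 MGE genes, 0 were called, 2 had a log2 difference above 0 and 7 below, and the median difference was -0.10. With sex as a covariate Nos1 (-0.21) and Maf (-0.22) passed an unadjusted p of 0.05 as lower in limma. Pvalb, the calcium buffer of fast-spiking cells, was at 39.4, 34.4 and 35.2 FPKM in Trained 1, 2 and 3 and at 31.9, 44.2 and 34.5 FPKM in Trained 12, 13 and 14. The untrained libraries 5, 6, 10, 16 and 17 held 35.1, 31.2, 27.1, 38.2 and 38.7 FPKM. Its highest library was Trained 13 and its lowest Untrained 10, and the groups overlapped in between (0.11 ± 0.10, exact permutation p = 0.344). Sst was at 424, 403 and 382 FPKM in Trained 1, 2 and 3 and at 382, 396 and 258 FPKM in Trained 12, 13 and 14. In the untrained libraries it was at 395, 404, 327, 302 and 340 FPKM. Trained 14 was the lowest of all 11 libraries and stood apart from the other 5 trained ones, while Untrained 10, 16 and 17 lay below Untrained 5 and 6. The difference was 0.07 ± 0.12 (exact permutation p = 0.634). Without Trained 14 it was 0.18, which passed an unadjusted p of 0.05 in limma.

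The other MGE genes are factors and markers of narrower classes. Chodl was at 0.172, 0.160 and 0.261 FPKM in Trained 1, 2 and 3 and at 0.220, 0.125 and 0.134 FPKM in Trained 12, 13 and 14. The untrained libraries held 0.211, 0.166, 0.3795, 0.208 and 0.332 FPKM. The highest libraries were Untrained 10 and 17, and the rest of both groups overlapped (-0.35 ± 0.19, exact permutation p = 0.115). Within libraries 10 to 17 the difference was -0.64, past an unadjusted p of 0.05 in limma, and within 1 to 6 it was 0.03. Nos1, which makes nitric oxide, was at 7.59 ± 1.15 against 8.63 ± 1.46 FPKM. Maf, a factor of MGE cells, was at 6.84 ± 0.543 against 7.97 ± 1.64 FPKM, and Elfn1, a synaptic adhesion protein of somatostatin cells, at 10.7 ± 0.515 against 11.99 ± 2.19 FPKM. In both the larger spread of the untrained group came from Untrained 10, at 10.9 FPKM for Maf and 15.9 FPKM for Elfn1, above the highest of the other untrained libraries at 7.59 and 11.3 FPKM. That library also held Ttr, the thyroid hormone carrier of the choroid plexus, at 164 FPKM, where the highest other library held 10.04 FPKM, and the part of this in the result was not tested. Lhx6, Sox6 and Satb1 differed by -0.05, -0.10 and -0.07 (exact permutation p = 0.409, 0.459 and 0.247).

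None of the 9 CGE genes was called either, with 4 log2 differences above 0, 5 below and a median of -0.03. Vip, the peptide of cells that inhibit other interneurons, was at 35.1, 33.3 and 29.5 FPKM in Trained 1, 2 and 3 and at 36.3, 39.2 and 34.8 FPKM in Trained 12, 13 and 14. The untrained libraries held 34.9, 35.6, 34.1, 38.6 and 36.5 FPKM. Trained mice held both the lowest and the highest library, and the interval of the difference ran from -12.7% to 6.28% (exact permutation p = 0.470). Reln, the secreted glycoprotein of layer 1 cells, was at 9.32 ± 2.14 against 9.50 ± 1.97 FPKM, Calb2 (calretinin) at 8.72 ± 1.116 against 8.24 ± 0.451 FPKM and Kit, a receptor tyrosine kinase, at 9.85 ± 0.779 against 10.3 ± 0.271 FPKM. Htr3a, the serotonin receptor channel that marks the CGE lineage, was at 4.16 ± 0.545 against 4.25 ± 0.367 FPKM. Ndnf, Adarb2, Prox1 and Npas1 differed by -0.08, 0.16, 0.04 and 0.06 (exact permutation p = 0.641, 0.346, 0.766 and 0.628).

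By the sign of the log2 difference 4 of the 7 peptide genes were higher and 3 lower, Npy among the latter at -0.0005, and none was called. Cort, the somatostatin relative cortistatin, was at 18.2, 15.2 and 15.1 FPKM in Trained 1, 2 and 3 and at 14.4, 9.27 and 5.76 FPKM in Trained 12, 13 and 14. The untrained libraries 5, 6, 10, 16 and 17 held 13.1, 14.4, 12.9, 5.82 and 8.44 FPKM. The spread within each group was wider than the gap between them, and Trained 14 and Untrained 16 were nearly equal at the bottom (0.23 ± 0.29, exact permutation p = 0.522, an interval from -24.2% to 81.1%). Within libraries 1 to 6 it was 0.23, past an unadjusted p of 0.05 in limma, and within 10 to 17 it was 0.09, not past it. Npy was at 122 ± 18.0 against 121 ± 12.9 FPKM and Cck at 464 ± 46.6 against 452 ± 41.5 FPKM. For these 2 genes the intervals of the difference ran from -14.8% to 17.3% and from -8.97% to 15.7%. Crh, the stress peptide corticotropin-releasing hormone, was at 3.46 ± 0.428 against 3.70 ± 0.867 FPKM, and Crhbp, which binds it, at 12.1 ± 2.21 against 12.9 ± 1.64 FPKM. Of the tachykinin genes, Tac1 had means of 11.9 ± 2.003 and 11.3 ± 1.28 FPKM in trained and untrained mice, and Tac2 had 6.23 ± 0.835 and 5.72 ± 1.54 FPKM.

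In the lineage group 1 of 6 genes was called. Dlx2 was at 2.83, 2.79 and 3.19 FPKM in Trained 1, 2 and 3 and at 3.71, 3.51 and 2.80 FPKM in Trained 12, 13 and 14. In Untrained 5, 6, 10, 16 and 17 it was at 2.33, 2.42, 3.19, 2.64 and 2.41 FPKM. All 6 trained libraries exceeded 4 of the 5 untrained ones, and Untrained 10 lay among the trained. The means were 3.14 ± 0.401 and 2.60 ± 0.353 FPKM, a log2 difference of 0.26 ± 0.11 (limma, unadjusted p = 0.0302, adjusted p = 0.577, exact permutation p = 0.0411, two-sided). Within libraries 1 to 6 the difference was 0.29, past an unadjusted p of 0.05 in limma, and within 10 to 17 it was 0.27, not past it. It no longer passed an unadjusted p of 0.05 without Trained 12 (0.21), Trained 13 (0.23), Untrained 5 (0.23), Untrained 6 (0.24) or Untrained 17 (0.24), and the gene rests on an estimated 98 to 221 fragments per library. Dlx1, its neighbour on chromosome 2, differed by -0.04. Dlx5 and Dlx6, of the same family but on chromosome 6, differed by 0.20 and 0.11. Of these 2, Dlx5 came closer to the threshold (4.51 ± 0.339 against 3.93 ± 0.559 FPKM, exact permutation p = 0.0649). In limma it passed an unadjusted p of 0.05 without Untrained 10 (0.27), without Trained 1 (0.23), with array weights (0.20) or with the number range as a covariate (0.21). Dlx1 shares exon sequence with Dlx1as on the other strand, which was at 4.59 to 6.88 FPKM, so the counts of that pair are uncertain. Dlx6os1, a long noncoding RNA next to Dlx6, was at 3.11 ± 1.01 against 3.45 ± 0.471 FPKM.

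Erbb4, the neuregulin receptor of interneurons, varied among the most. It was at 6.46, 5.75 and 5.86 FPKM in Trained 1, 2 and 3 and at 11.04, 13.3 and 12.2 FPKM in Trained 12, 13 and 14. The untrained libraries 5, 6, 10, 16 and 17 held 7.32, 5.25, 7.204, 11.8 and 9.76 FPKM. The trained libraries fell apart by number, and of the untrained ones Untrained 16 and 17 were high while Untrained 10 stayed with 5 and 6. The group difference was 0.10 ± 0.26 (exact permutation p = 0.747). Within libraries 1 to 6 it was -0.04 and within 10 to 17 it was 0.37, neither past an unadjusted p of 0.05 in limma.

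A difference of the training effect between the sexes reached an unadjusted p under 0.05 in 2 members, where 4.1% of all genes did, and in 0 of 14936 genes after adjustment (limma, interaction of sex and training). Npas1, a factor of CGE cells, differed by -0.11 in females and by 0.28 in males, and Tac2 by -0.09 and 0.54 (adjusted p = 0.959 for both). Of the 2 untrained males, Untrained 10 was the lowest of all libraries in both genes, at 5.84 FPKM for Npas1 and 3.14 FPKM for Tac2.

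The members differed more by the number in the label than by training, with a median absolute log2 difference of 0.14 against 0.09 (0.12 and 0.08 over all genes). Libraries numbered 1 to 6 (Trained 1, 2, 3 and Untrained 5, 6) and 10 to 17 (Trained 12, 13, 14 and Untrained 10, 16, 17) were compared because the first principal component of all genes, with 31.5% of the variance, had been seen to separate them, so the p-values below describe these libraries and are no independent test. The sources used here do not say what the numbers stand for. All 5 libraries of the lower numbers are female, and only Untrained 17 of the higher numbers is, so number and sex can only partly be told apart. Of the 34 members 8 were higher in 10 to 17 at an adjusted p under 0.05, where 6.47% of all genes were, and 3 were lower, where 2.9% of all genes were. The higher ones were Erbb4 (log2 difference 0.80), Reln (0.54), Ndnf (0.46), Dlx6os1 (0.46), Nos1 (0.41), Adarb2 (0.40), Sox6 (0.32) and Gad2 (0.29). The lower ones were Cort (-0.76), Crhbp (-0.32) and Tac1 (-0.31). In 4 members, Nos1, Reln, Ndnf and Tac1, the libraries of the ranges did not overlap, as in 7.16% of all genes. With sex as a covariate, an alternative added after the data had been seen, 0 members had an adjusted p under 0.05 (limma, 8 of the 34 at an unadjusted p under 0.05). The lowest adjusted p of a member was 0.212 (limma, Reln). Shares of all genes in this fit and in those without 1 library are not given here, so their counts cannot be read as particular to the members. In the fit with sex the 11 kept their sign, with sizes from 0.29 to 0.67 in the higher ones and -0.83, -0.38 and -0.05 for Cort, Tac1 and Crhbp. The 1 female library of the higher range, Untrained 17, lay beyond all 5 female libraries of the lower range in the direction of the difference for 10 of the 11, Crhbp being the exception. Untrained 17 was among the libraries by which the 11 were called, and for Nos1, Reln, Ndnf and Tac1 its place followed from the ranges. The count is thus no test of number against sex, and the same count over all genes is not given here. Leaving out 1 library gave between 5 and 13 members: 5 without Trained 2, Untrained 6 or Untrained 16, 6 without Trained 1, Trained 3 or Trained 14, and 7 without Untrained 17.

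**Figure D3:**
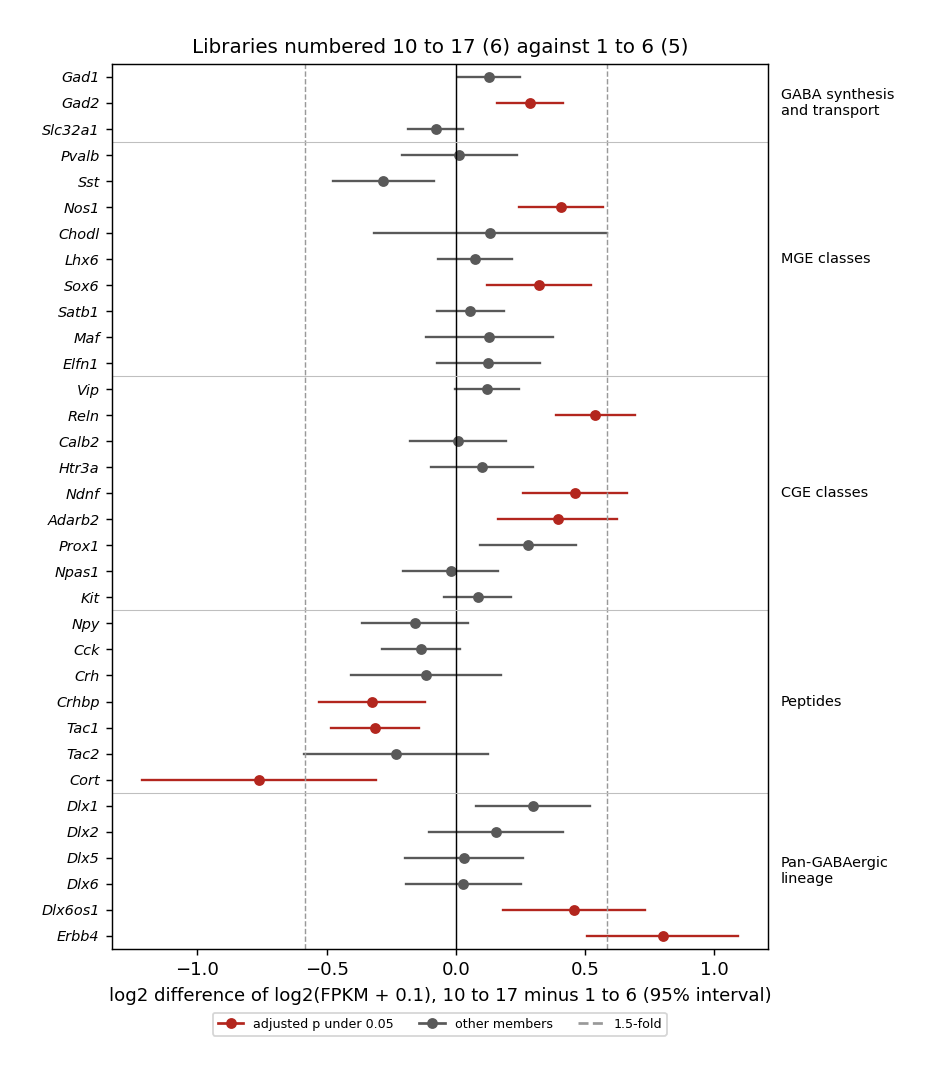
Difference between libraries numbered 10 to 17 (n = 6) and 1 to 6 (n = 5) for each member on the log2(FPKM + 0.1) scale, with its 95% interval from limma and dashed lines at 1.5-fold. Red marks an adjusted p under 0.05. All 7 peptide genes lie below 0, from -0.12 (Crh) to -0.76 (Cort), and all 6 lineage genes above 0, up to 0.80 (Erbb4), of which Dlx2, Dlx5 and Dlx6 turn below 0 with sex as a covariate.

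The classes differed in direction between the ranges. All 6 lineage genes, 8 of 9 CGE genes and 8 of 9 MGE genes had higher means in libraries 10 to 17, and all 7 peptide genes had lower ones. With sex as a covariate the peptides kept their sign, while Dlx2 (-0.15), Dlx5 (-0.25) and Dlx6 (-0.28) of the lineage genes, Lhx6 (-0.09) and Maf (-0.01) of the MGE genes and Htr3a (-0.04) and Calb2 (-0.01) of the CGE genes turned to lower, and Npas1 (0.12) turned to higher. Over all genes 7400 of 14936 were higher and 7536 lower. The mean level of the CGE genes, on the log2 scale relative to the mean of all libraries, ran from -0.19 to -0.06 in libraries 1 to 6 and from -0.04 to 0.24 in 10 to 17, without overlap. That of the lineage genes ran from -0.22 to -0.09 and from -0.05 to 0.30, again without overlap. That of the peptides ran from 0.05 to 0.26 and from -0.36 to 0.05. Trained and untrained libraries overlapped in the level of every class. Sst, which counts with the MGE genes here, went with the peptides: 401 ± 15.3 FPKM (SD, n = 5) in 1 to 6 against 334 ± 51.0 FPKM (SD, n = 6) in 10 to 17, a difference of -0.28 with an adjusted p of 0.0708 (limma).

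Reln was at 7.51 ± 0.552 FPKM in libraries 1 to 6 and at 10.98 ± 0.938 FPKM in 10 to 17. Its highest value in the lower range, 8.36 FPKM in Untrained 5, stayed below its lowest in the higher range, 9.32 FPKM in Untrained 10. Erbb4 was at 6.13 ± 0.792 against 10.9 ± 2.16 FPKM, with Untrained 10 (7.204 FPKM) below Untrained 5 (7.32 FPKM) as the overlap. Ndnf, a secreted factor of layer 1 neurogliaform cells, was at 1.81 ± 0.179 against 2.53 ± 0.245 FPKM, and Gad2 at 27.1 ± 1.52 against 33.1 ± 2.48 FPKM. Slc32a1 did not follow Gad2, with 36.3 ± 1.38 against 34.4 ± 2.04 FPKM, and the ratio of Slc32a1 to Gad1 ran from 0.575 to 0.642 in libraries 1 to 6 and from 0.469 to 0.570 in 10 to 17, without overlap. The ratio of Gad1 to Gad2 ran from 2.11 to 2.31 and from 1.64 to 2.21. Pvalb (0.01), Calb2 (0.01) and Npas1 (-0.02) had the smallest differences.

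For some of the peptide genes, 2 libraries were low together. Trained 14 and Untrained 16, 1 of each group, were the 2 lowest of the 11 libraries for Sst (258 and 302 FPKM), Npy (89.8 and 98.6 FPKM), Crhbp (8.54 and 10.4 FPKM) and Cort (5.76 and 5.82 FPKM). They were also the lowest for Calb2 (7.28 and 7.66 FPKM), and Trained 14 was the second lowest for Chodl and Tac2. For Cck, Crh, Tac1 and Tac2 only 1 of these 2 libraries was among the 2 lowest. Some other markers, picked after their values were seen, were not low there: Gad1 was at 69.1 and 65.3 FPKM, Gad2 at 35.6 and 33.0 FPKM, Pvalb at 34.5 and 38.2 FPKM and Lhx6 at 7.77 and 7.41 FPKM, each close to or above its mean. Others were low in Untrained 16 but not in Trained 14: Dlx5 (3.40 against 4.63 FPKM, its lowest library) and Dlx6 (3.44 against 4.36 FPKM, its second lowest). Slc32a1 was at 35.3 and 33.4 FPKM (mean 35.3 FPKM), and Dlx2, at 2.80 and 2.64 FPKM, lay below its mean of 2.89 FPKM in both. Trained 14 and Untrained 16 also had the highest scores on the first principal component, 26.1 and 22.1. Their depth, 17.7 and 19.0 M fragments, lay in the lower part of the range. Cort moved most: the ratio of Sst to Cort was 23.3 to 30.3 in libraries 1 to 6 and 25.4 to 51.8 in 10 to 17. Tac1, the substance P precursor, was at 12.97 ± 0.989 against 10.5 ± 1.14 FPKM, with its lowest values in Trained 13 (8.79 FPKM) and Untrained 16 (9.89 FPKM). The promoters of Sst, Cort, Crhbp and Tac1 printed above each hold a CRE core, and so does that of Cck. Those of Npy and Tac2, peptide genes that also had lower means in 10 to 17, hold none, and for Crh no promoter was found. A core is also in 1 promoter each of Gad2, Nos1, Sox6 and Dlx6os1, which were higher in libraries 10 to 17. Those of Erbb4, Reln and Adarb2, also higher there, hold none.

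**Figure D4:**
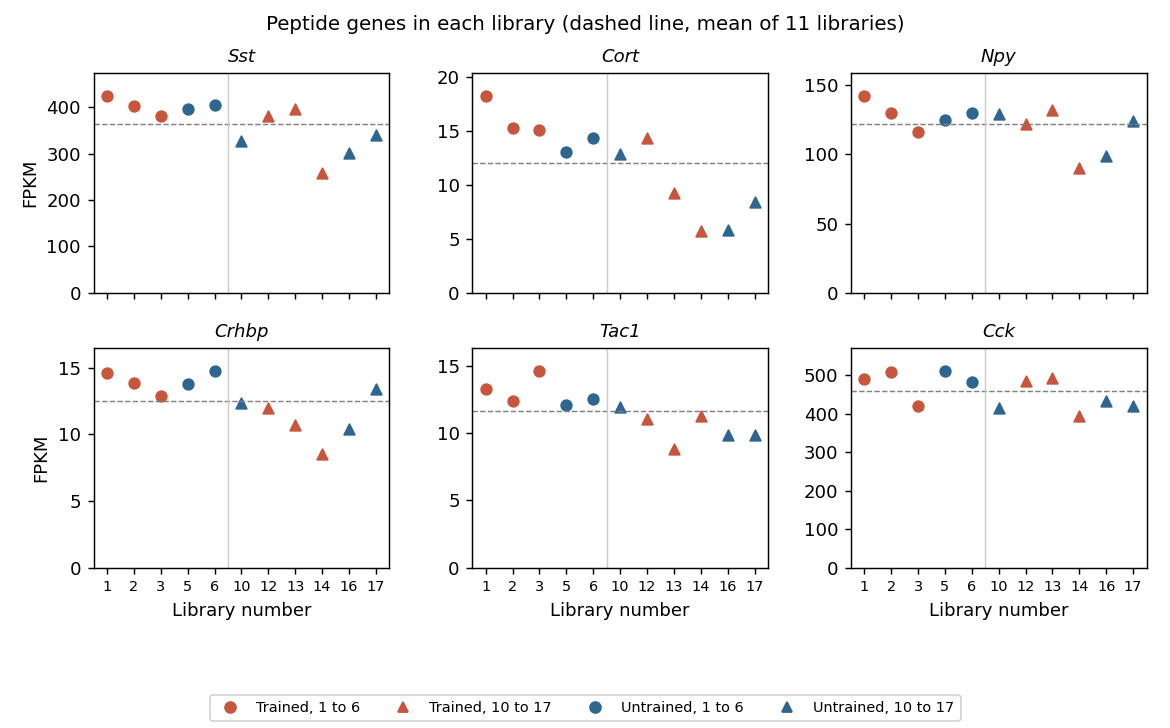
FPKM of 6 peptide genes in each library in the order of the library numbers, each on its own axis from 0, red for trained and blue for untrained mice, with the mean of 11 libraries as a dashed line and a grey line between numbers 6 and 10. Libraries 14 and 16, 1 trained and 1 untrained, hold the lowest values of Sst, Cort, Npy and Crhbp.

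The difference between the number ranges went with the length of the gene. Across the 33 members with a single annotation match, the Spearman correlation of this log2 difference was 0.675 with the genomic span and 0.824 with the exon length, given as descriptions, since genes are not independent replicates. Across 14337 genes it was 0.331 and 0.362. All 4 members over 200 kb (Erbb4, Sox6, Adarb2 and Reln) were called higher, with a median of 0.47. Of the 906 genes of that length 77.2% had higher means, with a median of 0.14, and the share of them called is not given here. Of the 12 members under 10 kb, 5 had higher means in 10 to 17 and 7 lower ones, with a median of -0.10. Of the 3531 genes of that length 32.2% had higher means, with a median of -0.08. The peptide genes are short and the class factors include long genes, so class and length cannot be told apart within these members. Ndnf, with 40.7 kb and 0.46, and Dlx1, with 5.87 kb and 0.30, lay above their length class, whose medians were -0.01 and -0.08. The training difference had a Spearman correlation of -0.438 with span across the members and -0.247 across all genes. Its median was 0.05 for all genes under 10 kb and -0.06 for those over 200 kb. Slc32a1 (0.12) and Dlx2 (0.26) are in the class under 10 kb, and the part of length in their differences was not tested.

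**Figure D5:**
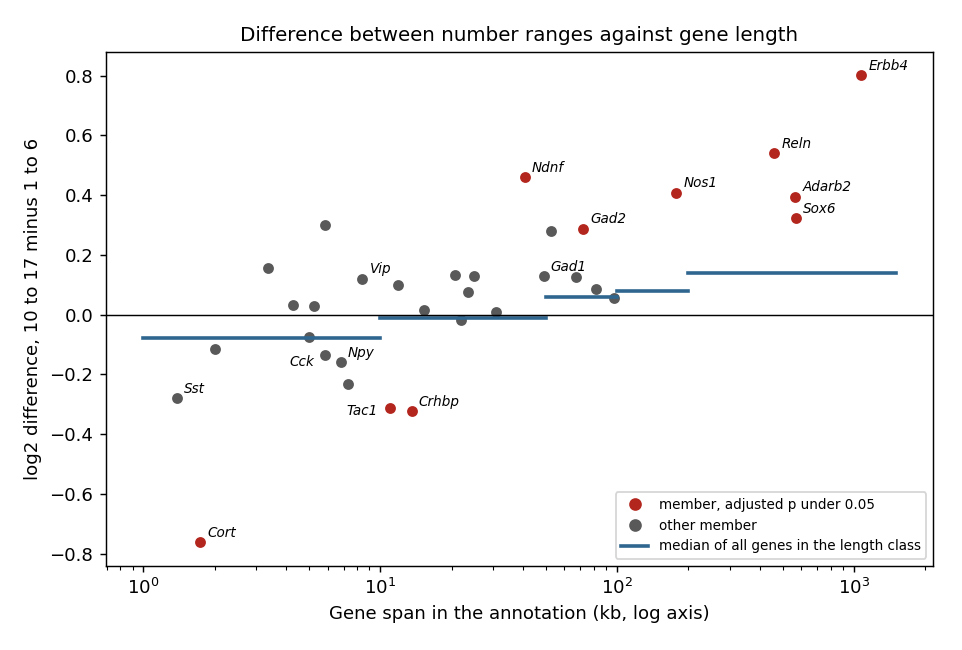
Log2 difference between libraries 10 to 17 and 1 to 6 for 33 members against the genomic span of the gene in kb on a log axis. Red points have an adjusted p under 0.05 and blue bars are the medians of all genes in 5 length classes. The bars climb from -0.08 under 10 kb to 0.14 over 200 kb, and Erbb4, the longest member, stands highest at 0.80 while Cort stands lowest at -0.76.

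Other genes of these cells were tested in the same way. Of 37 further interneuron genes measured, 0 passed an unadjusted p of 0.05 as higher in trained mice and 1 passed it as lower: Cbln4, a synapse organiser made by somatostatin cells, at 3.80 ± 0.581 against 4.57 ± 0.514 FPKM (log2 difference -0.27, limma, adjusted p = 0.577, exact permutation p = 0.0498). Their median difference was -0.02. Of 13 receptors for the peptides, 0 were called, with a median of 0.003. Of 7 partners of Reln, Kit and Erbb4, Lrp8, a reelin receptor, was lower (11.7 ± 0.768 against 13.4 ± 1.25 FPKM, -0.20, limma, adjusted p = 0.551, exact permutation p = 0.0260), and Nrg2, a neuregulin that binds Erbb4, was higher (3.41 ± 0.426 against 2.87 ± 0.253 FPKM, 0.24, adjusted p = 0.578, exact permutation p = 0.0346). The other neuregulins, Nrg1 and Nrg3, and the reelin pathway genes Vldlr and Dab1 were not called. Chat, Sstr5, Cckar, Tacr2 and Tacr3 are not in the table used here.

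Genes of other cells differed between the number ranges too. The summed level of 6 oligodendrocyte markers ran from 501 to 1036 FPKM in libraries 1 to 6 and from 275 to 475 FPKM in 10 to 17, and all 6 were lower in 10 to 17 at an adjusted p under 0.05 (limma). That of 10 striatal markers ran from 69.7 to 91.3 and from 59.5 to 68.8 FPKM, of which Drd2, a defining one, was between 0.344 and 1.34 FPKM. That of 10 markers of excitatory neurons ran from 1743 to 1826 and from 1781 to 2040 FPKM, and of the 8 activity-regulated genes from 372 to 823 and from 182 to 691 FPKM. The part of these differences in those of the members was not tested. Between trained and untrained libraries the same sums overlapped for oligodendrocytes (275 to 1036 and 332 to 592 FPKM), striatal markers (59.5 to 91.3 and 61.3 to 71.0 FPKM) and excitatory neurons (1743 to 1835 and 1746 to 2040 FPKM). Those of other cells leaned lower in trained mice: the 6 leptomeningeal genes were all lower (median -0.33, summed level 17.6 to 30.0 against 24.3 to 45.3 FPKM), as were the 3 choroid plexus genes measured (0.686 to 4.61 against 0.822 to 168 FPKM) and 4 of 5 astrocyte genes (216 to 230 against 221 to 267 FPKM). Of these, Igf2 (-0.57), Kl (-0.77) and Gja1 (-0.20) passed an unadjusted p of 0.05 in limma, none after adjustment, and Untrained 10 had the highest level of all 3 lists. Their part in the training differences of the members was not tested. The excitatory markers Slc17a7 (694 to 761 FPKM) and Camk2a (716 to 966 FPKM) were high in every library.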

How the data were processed

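RNA was sequenced from the ACC of 11 mice, 1 library each, with a stranded mRNA kit. Per the submitters' processing notes and the methods of the study, reads were trimmed with Trimmomatic 0.38, aligned with Bowtie2 2.3.5.1 (mm10 genome) and assigned to genes with featureCounts (Subread 1.6.3). The authors deposited FPKM values for each gene and library, which are scaled to gene length and library total. The sources used here do not give the annotation, the strand setting or how FPKM were computed. In GENCODE annotation, exons of 10 members overlap those of another gene, for 9 of them on the opposite strand. Reln, Nos1 and Dlx6os1, which differed between the number ranges, are among these 9, and the limit given for Slc32a1 holds for them too. A deposited table of the authors' own comparison (edgeR 3.30.3) holds log2 fold changes, p-values and adjusted p-values and was not used. An untrained male that the authors removed for low reads was not analysed here.

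FPKM are no counts, so limma 3.58.1 with a mean-variance trend (R 4.3.3) was run on log2(FPKM + 0.1) for 14936 genes whose mean reached 0.1 FPKM, with Benjamini-Hochberg adjustment over all of them. Fold changes on this scale understate those of low genes. An exact permutation test covered single genes. Low values came in steps from which depth was estimated (14.2 to 27.1 M fragments), but only 43.3 to 52.5% of them lay within 0.1 of a whole number of fragments, where 20% would if spread evenly, so no count test was run. The steps used exon lengths of GENCODE annotation, to which 14374 gene names (96.0%) matched. Intervals cover the spread between these mice.

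The members and gene lists were chosen with earlier results of these data known. Values in every library are given for Gad1, Gad2, Slc32a1, Pvalb, Sst and Vip, for members with an unadjusted p under 0.05 or groups that do not overlap, and for the 3 members with the largest coefficient of variation (Chodl, Cort and Erbb4). Of the related lists, genes with an unadjusted p under 0.05 are named. Maf, Elfn1, Reln, Dlx5 and the genes that differ between number ranges were singled out after their values were seen. Correlations over libraries had been planned and were left out, since the libraries fall into separate clusters. Promoters are from RefSeq (GRCm38.p6). The procedure was tested on simulated data. Alternatives were other pseudocounts and filters, quantile normalization, covariates, array weights, each library left out and each number range alone. Python 3.11.15, numpy 2.4.6, pandas 2.3.3, scipy 1.17.1 and matplotlib 3.10.9 were used.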

Additional observations from a re-analysis of the deposited data

Results flagged for a closer look

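In 4 of 68 groups of values (34 members in trained and in untrained mice) 1 library lay far from the others of its group, and chance gives about 1 in 20. Sst in Trained 14 was at 257.8 FPKM, where the other trained libraries held 381.5 to 423.6 FPKM. Npy in Untrained 16 was at 98.63 FPKM, below 124.1 to 129.6 FPKM in the other untrained libraries. Untrained 10 stood above its group in 2 genes, with Maf at 10.87 FPKM (others 6.869 to 7.588 FPKM) and Elfn1 at 15.89 FPKM (others 10.84 to 11.31 FPKM). The causes were not tested.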

How the results depend on the processing

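Over the alternatives 649 values were counted, with only those of Slc32a1 and Dlx2 for each number range alone. Of these 598 kept their direction and side of the threshold, 12 newly passed it, 8 no longer did and 31 changed sign. The causes were not tested. With sex as a covariate 2 members, Nos1 and Maf, passed an unadjusted p of 0.05 as lower after training (limma). Within libraries 10 to 17 alone 0 were higher and 1 was lower (Chodl), and within 1 to 6 alone 2 were higher (Dlx2 and Cort) and 0 lower. Leaving out 1 library gave 1 to 3 members higher, 0 to 2 lower and 5 to 13 that differed between the number ranges, a count that was 0 with sex as a covariate. Shares of all genes in these fits are not given here. The sign changes counted were in 11 genes with differences of at most 0.163. Members not counted for a number range alone also changed sign there, among them Calb2, Dlx6 and Chodl. Chodl was at -0.35 over all libraries and at 0.03 within 1 to 6. With quantile normalization Cck was at -0.0095, with the range as a covariate Reln was at 0.022, with sex as a covariate Npy was at 0.017, and with array weights Gad1 was at -0.0081, Npas1 at -0.037, Npy at 0.061 and Crh at 0.012. Over the fits without 1 library, Gad1 ran from -0.0083 to 0.065, Reln from -0.138 to 0.050, Htr3a from -0.093 to 0.015, Prox1 from -0.017 to 0.089, Npas1 from -0.024 to 0.095, Npy from -0.073 to 0.084, Crh from -0.195 to 0.039, Tac2 from -0.036 to 0.255, Dlx1 from -0.118 to 0.045 and Erbb4 from -0.045 to 0.243. Quantile normalization moved the median of all genes by -0.0004. No paired analysis was possible because the groups share no replicate numbers. Chodl, with 13 to 39 estimated fragments, is limited by depth.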
